A study of Mus musculus with 6 samples.

Results

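The imprinted growth-control genes examined here were 10 genes taken by symbol from a table of RNA-sequencing values: H19, Dlk1, Meg3, Peg3, Mest, Plagl1, Grb10, Ndn, Gnas and Sgce. All 10 symbols had 1 row each among the 36870 distinct symbols of the table. They were taken by name, with earlier results of these data known. RNA was sequenced from cultures named BMMSCs, the adherent cells that grow out of flushed mouse bone marrow. These cultures carried macrophage as well as stromal transcripts, as given below. There were 3 control libraries, from cells given a non-targeting siRNA, and 3 siTet1/Tet2 libraries, from cells given siRNAs against Tet1 and Tet2. All 6 came from C57BL/6 cells, labelled as passage 2, and the labels give no age, sex or number of donor animals. The methods describe the sequenced controls as vehicle-treated, while the siRNA protocol and the labels describe a non-targeting siRNA.

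An imprinted gene is read mainly from the chromosome inherited from the mother or mainly from the one inherited from the father. The choice is set by DNA methylation laid down in the germ line at control regions near the gene, and it is kept through cell division by the maintenance methyltransferase and by zinc-finger proteins that bind the methylated copy. Tet proteins oxidise 5-methylcytosine to 5-hydroxymethylcytosine and beyond, a route by which methylation can be removed. Many imprinted genes act on growth: paternally expressed members such as Igf2 tend to promote it, and maternally expressed members such as Grb10, Cdkn1c and Igf2r tend to restrain it. The libraries hold no allele or methylation values, so the results below are total transcript levels.

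The values are RPKM, the reads on a gene divided by its length and by the reads of the library, so that levels of different genes can be set side by side. Groups were compared on the scale of log2(RPKM + 1), on which changes of genes below about 1 RPKM are understated. A gene was called lower or higher at an adjusted p under 0.05, and altered at an unadjusted p under 0.05 with a fold change over 2 on that scale. The test took in the 13266 genes whose mean RPKM over the 6 libraries was 0.1 or more. With 3 libraries against 3, an exact permutation test of a single gene cannot give a p below 0.1, so the tests rest on the variance that limma shares across genes. Nothing in the labels says that the libraries of a group were separate cultures or animals, so the p-values measure the spread between these libraries, which may be technical.

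The siRNA targets gave a check of the labels. Tet2 stood at 2.57, 4.08 and 3.71 RPKM in control and at 0.358, 0.238 and 0.202 RPKM in siTet1/Tet2 (−1.80, adjusted p = 2.88e-05). Tet1 was below the limit for a test, with 0.032, 0.098 and 0.050 RPKM in control and 0.001, 0.010 and 0.001 RPKM in siTet1/Tet2. Both targets matched the labels. Tet3 was not called (0.12, adjusted p = 0.508).

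The promoter sequences of 3 start sites of Grb10 and Mest are shown. Both genes are read from several promoters that differ in CpG content, and CpG is the dinucleotide on which imprinting marks are laid. Each sequence is the 250 bases before a RefSeq start site, 5′ to 3′ on the gene's own strand in GRCm38.p6, with every CpG in capitals. Such windows also differed for Gnas, with 14 to 29 CpG, and for Meg3, with 10 and 0, and are not printed. Whether a window lies in an imprinting control region was not examined. The RefSeq promoter table used here matched 8 of the 10 genes, and no window is shown for H19 and Sgce. The first is Grb10 at chr11:12037421-12037670 on the minus strand, the second Grb10 at chr11:12027972-12028221 on the minus strand, and the third Mest at chr6:30737800-30738049 on the plus strand.
Grb10 outer start: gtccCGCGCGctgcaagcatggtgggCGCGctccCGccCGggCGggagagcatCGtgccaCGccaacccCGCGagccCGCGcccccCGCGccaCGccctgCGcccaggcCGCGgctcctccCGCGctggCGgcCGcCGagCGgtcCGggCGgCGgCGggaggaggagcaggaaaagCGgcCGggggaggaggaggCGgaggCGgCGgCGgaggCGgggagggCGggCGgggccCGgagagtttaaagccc
Grb10 inner start: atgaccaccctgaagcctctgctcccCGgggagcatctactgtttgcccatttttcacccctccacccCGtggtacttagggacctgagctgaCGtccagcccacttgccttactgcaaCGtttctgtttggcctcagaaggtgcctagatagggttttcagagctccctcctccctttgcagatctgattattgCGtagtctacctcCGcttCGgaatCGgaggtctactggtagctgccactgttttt
Mest: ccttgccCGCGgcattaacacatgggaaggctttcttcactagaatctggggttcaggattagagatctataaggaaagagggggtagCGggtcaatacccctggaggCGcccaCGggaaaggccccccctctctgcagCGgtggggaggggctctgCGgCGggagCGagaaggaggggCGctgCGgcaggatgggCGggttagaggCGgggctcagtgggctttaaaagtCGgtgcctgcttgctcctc
The outer Grb10 window held 40 CpG, more than 98.7% of the 32851 promoter windows of the same length, whose median was 6. The inner Grb10 window held 8 and the Mest window 14. The letters TGCCGC, the core bound by the imprint-maintaining protein ZFP57 when methylated, were searched on both strands. They occurred 2 times, as GCGGCA, in the Mest window, not at all in either Grb10 window, and at least once in 8.68% of all windows. Of the windows not printed, that of Plagl1 at chr10:13090582-13090831 and that of Meg3 at chr12:109540746-109540995 each held GCGGCA 1 time. Another Mest window, at chr6:30733256-30733505 and also not printed, held 7 CpG and none of these letters. A match of letters is a description and was not tied to binding or methylation in these cells.

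Of the 10 genes, 6 reached the level needed for a test. They were Gnas, Grb10, Sgce, Ndn, Plagl1 and Mest. Peg3 and Dlk1 were measured below it, and H19 and Meg3 were listed at 0.001 RPKM, the lowest value of the table, in all 6 libraries. Among the 6 tested, 4 were called lower in siTet1/Tet2 (Grb10, Ndn, Sgce and Plagl1), where 29.8% of all genes tested were called lower. None was called higher, where 14.7% of all genes were. Altered and lower were 3 of the 6 (Grb10, Ndn and Sgce), against 5.63% of all genes, and altered and higher were 0, against 0.95%. Over all genes, 3952 were called lower and 1953 higher, against 3223 and 2561 with median ratio scaling and 2627 and 3607 with quantile normalization, under which Grb10, Ndn, Sgce and Plagl1 were also called lower. The median difference was −1.14 on the log2(RPKM + 1) scale over the 6 genes and −0.09 over all genes tested. Mest and Gnas were not called. The summed level of 12 stromal markers was 21.9% of control in the same siTet1/Tet2 libraries and that of 10 macrophage markers 212% (149% without Lyz2), and their part in these differences was not tested.

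**Figure D1:**
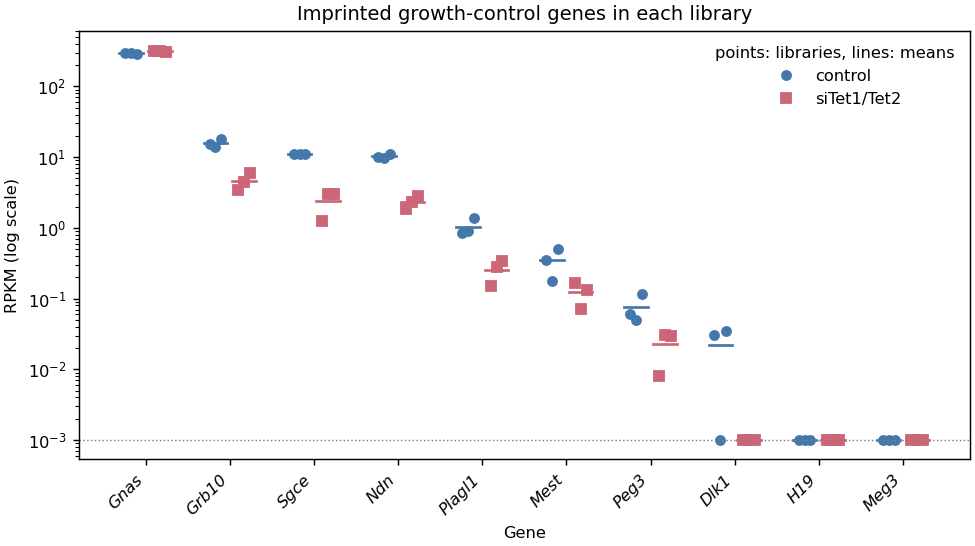
RPKM on a log axis for each of the 10 genes, with control libraries as circles, siTet1/Tet2 libraries as squares and group means as lines; the dotted line marks the lowest listed value of 0.001. Grb10, Sgce, Ndn and Plagl1 sat lower in all 3 siTet1/Tet2 libraries, Gnas lay between 284.9 and 320.0 RPKM in every library, and H19 and Meg3 lay on the dotted line throughout.

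Among the genes that restrain growth signalling, Grb10 encodes an adaptor that binds the insulin and IGF1 receptors and dampens their signal. It is read from the maternal copy in most tissues. Grb10, on chromosome 11 at 11930508-12038683, stood at 15.4, 13.8 and 17.8 RPKM in control libraries 1, 2 and 3, and siTet1/Tet2 libraries 1, 2 and 3 had 3.42, 4.45 and 6.00 RPKM. The groups were well apart, the lowest control library being over 2-fold above the highest siTet1/Tet2 library. The difference was −1.59 on the log2(RPKM + 1) scale (SE 0.17, 95% interval −1.97 to −1.20, adjusted p = 0.000151), and the siTet1/Tet2 mean was 29.5% of the control mean. Of all 13266 genes ordered by this difference, 2.37% lay at or below Grb10. The values are summed over the gene and do not tell the outer from the inner start site.

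Ndn encodes necdin, a MAGE-family protein that restrains proliferation and is read from the paternal copy. Ndn, on chromosome 7 at 62346569-62350262, had 9.99, 9.73 and 11.0 RPKM in control and 1.82, 2.36 and 2.85 RPKM in siTet1/Tet2. The spread within each group was small against the gap between them. The difference was −1.76 (SE 0.12, 95% interval −2.04 to −1.48, adjusted p = 2.16e-05), with 22.9% of the control mean left. Sgce encodes epsilon-sarcoglycan, a membrane protein read from the paternal copy. Sgce, on chromosome 6 at 4674350-4747207, had 11.1, 11.2 and 11.0 RPKM in control and 1.26, 2.99 and 3.01 RPKM in siTet1/Tet2. The control libraries were nearly identical, and siTet1/Tet2 library 1 lay below the other two of its group. Sgce differed by −1.87 (SE 0.21, 95% interval −2.35 to −1.40, adjusted p = 0.000189), which left 21.8% of the control mean. Leaving out each library in turn gave between −2.01 and −1.60.

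Plagl1 encodes a zinc-finger transcription factor that acts on other imprinted genes and slows the cell cycle, and it is read from the paternal copy. Plagl1, on chromosome 10 at 13060504-13131694, was at a low level, with 0.845, 0.902 and 1.38 RPKM in control and 0.153, 0.280 and 0.337 RPKM in siTet1/Tet2. These values stood for an estimated 158 to 235 reads per control library and 31 to 63 per siTet1/Tet2 library. The groups did not overlap, and the siTet1/Tet2 mean was 24.6% of the control mean. The difference on the log2(RPKM + 1) scale was −0.69 (SE 0.11, adjusted p = 0.00134), so Plagl1 was called lower without passing the 2-fold limit on that scale. With pseudocounts of 0.1 and 0.01 in place of 1 it was −1.69 and −2.02.

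Mest encodes a protein with an alpha/beta-hydrolase fold, is read from the paternal copy and is a marker of growing mesoderm and fat. Mest, on chromosome 6 at 30723547-30748465, had 0.357, 0.177 and 0.509 RPKM in control and 0.164, 0.071 and 0.133 RPKM in siTet1/Tet2. The groups touched without overlapping, control library 2 being just above siTet1/Tet2 library 1. An estimated 16 to 44 reads per control library and 7 to 17 per siTet1/Tet2 library stood behind these values. The difference was −0.26 (SE 0.09, adjusted p = 0.0562) and was not called. It passed with the replicate number as a block (adjusted p = 0.0271) and without control library 2 (−0.35, adjusted p = 0.0149), and it missed without each of the other libraries.

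Gnas encodes the stimulatory G-protein alpha subunit, which carries the signal of parathyroid hormone and other receptors to adenylyl cyclase, and its use of the maternal copy differs by tissue and promoter. Gnas, on chromosome 2 at 174284320-174346744, stood at 301.3, 300.5 and 284.9 RPKM in control and at 314.1, 320.0 and 310.7 RPKM in siTet1/Tet2. The levels were narrowly grouped, and the siTet1/Tet2 libraries lay just above the controls. The difference was 0.09 (SE 0.06, 95% interval −0.05 to 0.23, adjusted p = 0.26), so a fall of the size seen in Grb10, Ndn and Sgce lay outside the interval. The locus also carries the antisense gene Nespas, and whether the authors' counting used strand is not given in the sources used here.

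Among the 6 tested genes, 5 did not overlap between groups on the lower side, where 35.9% of all genes did so, and Gnas alone did so on the higher side, where 19.8% did. In level, the control means ran from 296 RPKM for Gnas through 15.7 for Grb10, 11.1 for Sgce and 10.2 for Ndn to 1.04 for Plagl1 and 0.348 for Mest, and each neighbouring pair kept its order in every control library. In siTet1/Tet2 the libraries of Sgce and Ndn overlapped, and so did those of Plagl1 and Mest.

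Peg3 encodes a zinc-finger protein of the paternal copy with roles in growth and maternal behaviour. Peg3, on chromosome 7 at 6703892-6730431, was at 0.060, 0.050 and 0.116 RPKM in control and 0.008, 0.031 and 0.030 RPKM in siTet1/Tet2, below the limit for a test. Every siTet1/Tet2 value was below every control value, on an estimated 14 to 33 reads per control library and 3 to 10 per siTet1/Tet2 library. Dlk1 encodes a membrane protein that holds back fat-cell differentiation and is read from the paternal copy. Dlk1, on chromosome 12 at 109452823-109463336, had 0.031, 0.001 and 0.035 RPKM in control and 0.001 RPKM in each siTet1/Tet2 library. About 5 reads stood behind each of the 2 control values above the lowest, and no fold change is given.

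H19 and Meg3 are maternally expressed long non-coding RNAs, partners of the paternally expressed Igf2 and Dlk1. H19 lies on chromosome 7 at 142575529-142578143 and Meg3 on chromosome 12 at 109541001-109571726. Their value of 0.001 in all 6 libraries was shared by nearly every non-coding gene of the table. Of 7086 symbols that RefSeq calls long non-coding, 7024 (99.1%) stood at 0.001 in all libraries, as did 1174 of 1174 microRNA symbols and 123 of 123 snoRNA symbols, against 3007 of 19923 protein-coding symbols (15.1%). Malat1, Neat1, Gas5 and Snhg1, non-coding RNAs that most cells make in large amounts, were at 0.001 as well. All 7 imprinted genes of the long non-coding type were at this value, Kcnq1ot1, Rian, Mirg, Airn and Peg13 among them. H19 and Meg3 are therefore given as listed at the lowest value, with no statement on their expression.

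**Figure D2:**
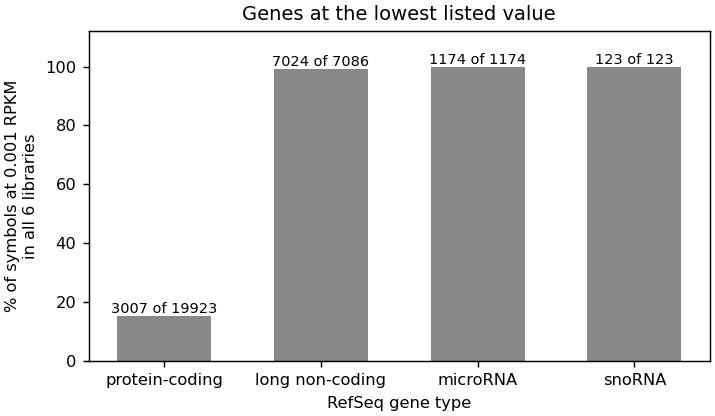
Share of the symbols of each RefSeq gene type that stood at 0.001 RPKM in all 6 libraries, as bars from 0 to 100%, with counts above the bars. Protein-coding symbols stood there in 15.1% of cases and long non-coding, microRNA and snoRNA symbols in 99.1% to 100%.

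Another 47 imprinted genes were taken from a list compiled by hand. Of these, 26 were tested, 14 were called lower, 4 higher and 8 were not called, and 5 were altered, all lower. For this and the counts below, the shares over all genes tested were 29.8% called lower, 14.7% called higher and 5.63% altered and lower. Their median difference was −0.30 on the log2(RPKM + 1) scale. Together with the 10 genes, 32 imprinted genes were tested, with 18 called lower and 4 higher. By the parental copy listed for each gene, 8 of 15 paternally expressed genes were called lower and 1 higher, and 10 of 16 maternally expressed genes were called lower and 3 higher. The copy in use was not measured, so these genes may not be read from 1 copy in these cells. Both Igf2, which promotes growth, and Grb10 and Cdkn1c, which restrain it, were among those called lower.

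The partners of the low or unmeasured members were themselves measured in part. Igf2, the paternally expressed growth factor next to H19, stood at 1.11, 1.08 and 1.09 RPKM in control and 0.167, 0.274 and 0.335 RPKM in siTet1/Tet2 (difference −0.74, SE 0.07, adjusted p = 0.000116). Dio3, the deiodinase that inactivates thyroid hormone and lies in the neighbourhood of Dlk1 and Meg3, had 2.62, 2.04 and 2.59 RPKM in control and 0.139, 0.069 and 0.060 RPKM in siTet1/Tet2. Dio3 was left at 3.70% of its control mean, the lowest share among the imprinted genes tested (difference −1.65, SE 0.09, adjusted p = 7.05e-06).

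Sgce shares a start region with Peg10, a gene derived from a retrotransposon and needed in the placenta. The annotated start sites, 4747207 for Sgce and 4747306 for Peg10, point away from each other and lie 99 bases apart. Peg10 had 0.439, 0.572 and 0.840 RPKM in control and 0.226, 0.298 and 0.465 RPKM in siTet1/Tet2. Its groups overlapped, and the difference of −0.28 (SE 0.11, adjusted p = 0.0656) was not called, although it passed with the replicate number as a block (adjusted p = 0.0128), without control library 1 (−0.36, adjusted p = 0.0333) and without siTet1/Tet2 library 3 (−0.35, adjusted p = 0.0398). Peg10 kept 53.4% of its control mean and Sgce 21.8%, and the difference between the 2 genes was not tested. Farther out in the same neighbourhood, the protease inhibitor Tfpi2 fell from a mean of 4.69 to 1.76 RPKM (−1.05, adjusted p = 0.00077) and Asb4, part of a ubiquitin ligase, from 2.26 to 1.23 RPKM (−0.55, adjusted p = 0.00128). Pon3, a paraoxonase, rose from 40.8 to 49.9 RPKM (0.29, adjusted p = 0.00343), and Ppp1r9a, a neuronal actin-binding protein, had means of 1.93 and 2.16 RPKM (adjusted p = 0.666). Neighbours of Sgce thus differed in both directions.

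In the neighbourhood of Ndn, Peg12 fell from a mean of 1.18 to 0.615 RPKM (−0.43, adjusted p = 0.00174) and Ube3a, the ubiquitin ligase that is imprinted in neurons, from 27.5 to 18.6 RPKM (−0.53, adjusted p = 0.0125). The call of Peg12 was lost with quantile normalization (adjusted p = 0.0774), and that of Ube3a without siTet1/Tet2 library 2 (adjusted p = 0.053) and without the filter on low values (adjusted p = 0.163). Both kept a larger share of their control mean, 52.3% and 67.6%, than Ndn with 22.9%. Snrpn, a spliceosome protein, had 0.986, 0.001 and 0.677 RPKM in control and 0.157, 0.185 and 0.223 RPKM in siTet1/Tet2 (difference −0.33, adjusted p = 0.245). Without control library 2 the difference was −0.62 and was called (adjusted p = 0.0025). Snrpn shares its transcript with Snurf, and how reads were assigned between them is not given. Whether this bears on the 0.001 of control library 2 was not tested.

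**Figure D3:**
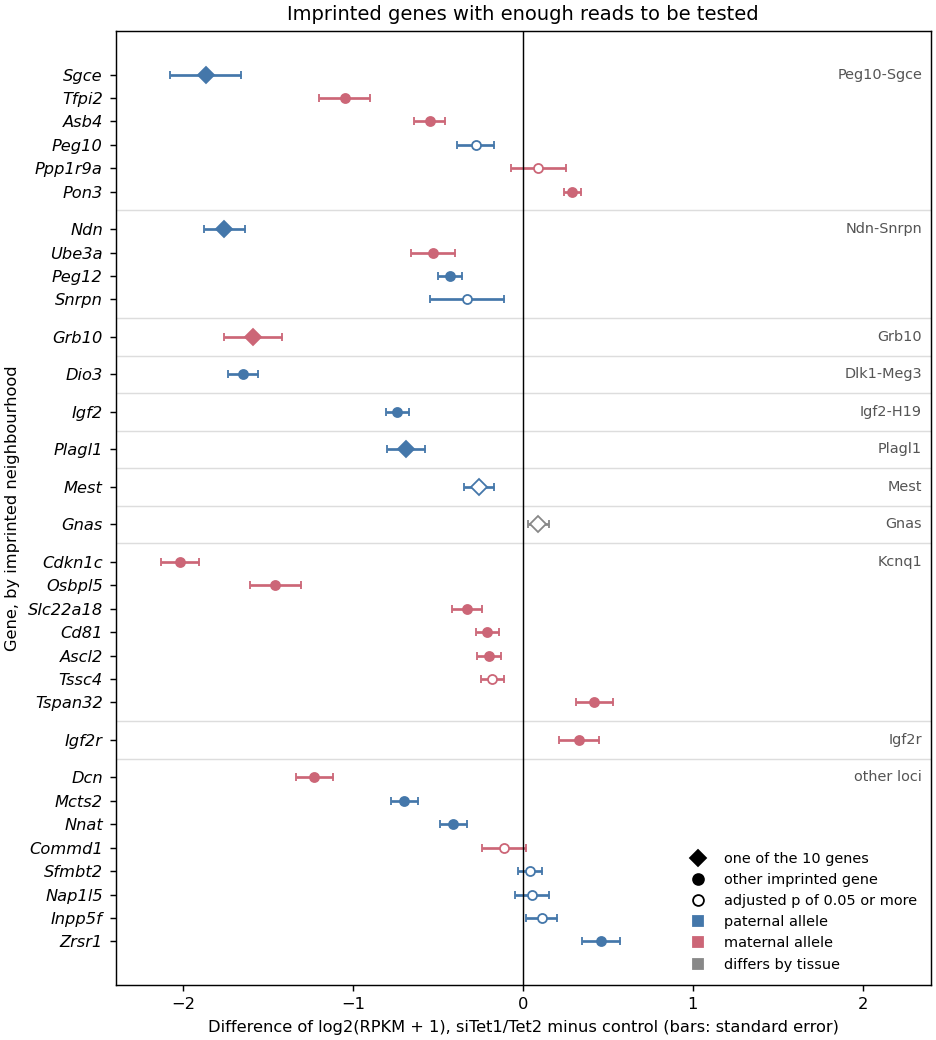
Difference in log2(RPKM + 1), siTet1/Tet2 minus control, with its standard error as a bar, for the 32 imprinted genes tested, grouped by neighbourhood; diamonds are genes of the group of 10, colours give the parental copy and open symbols were not called. Sgce, Ndn and Grb10 lay between −1.87 and −1.59. Of the neighbours of Sgce, Pon3, which was called, and Ppp1r9a, which was not, lay above 0.

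Outside these neighbourhoods, the 10 called genes with the widest differences were led by Cdkn1c, the cell-cycle inhibitor p57 and a maternally expressed brake on growth. Cdkn1c had 31.8, 36.1 and 29.9 RPKM in control and 6.24, 8.45 and 7.22 RPKM in siTet1/Tet2 (−2.02, SE 0.11, adjusted p = 7.15e-06). Its fall to 22.4% of the control mean was close to those of Ndn and Sgce. Osbpl5, a lipid-transfer protein, fell from 18.9 to 6.35 RPKM (−1.46, adjusted p = 0.000155) and Dcn, the matrix proteoglycan decorin, from 3.48 to 0.913 RPKM (−1.23, adjusted p = 5.76e-05). Mcts2 (−0.70) and Nnat (−0.41) also fell, as did, by less, Slc22a18 (−0.33) and Cd81 (−0.21). Mcts2 is a retrocopy of Mcts1, with which it may share reads. Zrsr1 (0.46), Tspan32 (0.42) and Igf2r (0.33) rose. Igf2r, the receptor that clears IGF2, had overlapping groups, with control library 3 at 59.8 RPKM against 59.3 RPKM in siTet1/Tet2 library 2. Zrsr1 lies within an intron of Commd1 and has a close paralog, so its value is uncertain. The calls of Igf2r, Slc22a18 and Cd81 were lost in 8, 9 and 10 of 18 alternative settings, counting those that turned the direction. Tspan32 lost its call without siTet1/Tet2 library 2 (adjusted p = 0.0721) and without the filter on low values (adjusted p = 0.14), and Zrsr1 without that filter (adjusted p = 0.0896).

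All 11 genes on a list of imprint maintenance were tested, with 4 called lower, 2 higher and a median difference of −0.13. Over all genes tested, 29.8% were called lower and 14.7% higher, so these counts were near the general shares. None was altered, and on the log2(RPKM + 1) scale their differences were smaller than those of Grb10, Ndn and Sgce. That scale understates changes of genes below about 1 RPKM, such as Zfp57 and Dnmt3l. Trim28, the corepressor recruited by ZFP57, fell from 66.8 to 53.7 RPKM (−0.31, adjusted p = 0.00236), and the de novo methyltransferase Dnmt3a rose from 18.4 to 22.1 RPKM (0.26, adjusted p = 0.0324). Dnmt1, the maintenance methyltransferase, had means of 51.5 and 47.0 RPKM (adjusted p = 0.137), and the insulator protein Ctcf 20.3 and 20.0 RPKM (adjusted p = 0.826). Also called were Tdg (−0.52), Uhrf1 (−0.44), Zfp57 (−0.42) and Dnmt3l (0.67). These 4 are named after their values were seen. Zfp57 went from a mean of 0.522 to 0.136 RPKM, 26.1% of control, a lower share than the 29.5% of Grb10. Dnmt3l went from a mean of 0.197 to 0.915 RPKM, 465% of control. The call of Dnmt3a was lost in 7 of 18 alternative settings.

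Markers of several cell types also differed between the groups, some lower and some higher in siTet1/Tet2. The cultures expressed macrophage genes at a high level in both groups. Lyz2, the lysozyme of myeloid cells, had 3547 to 5013 RPKM in control and 9842 to 12728 RPKM in siTet1/Tet2. Of 10 macrophage markers, 7 were called higher, 1 lower (Mrc1) and 2 were not called, and their summed RPKM ran from 6270 to 8232 in control and from 14134 to 17249 in siTet1/Tet2. Lyz2 carried much of that rise, and the other 9 markers summed to 149% of control, with Csf1r at 121%. Of 12 stromal markers, 10 were tested, with 9 called lower and 1, Vcam1, higher. Their summed RPKM ran from 1188 to 1785 in control and from 227 to 412 in siTet1/Tet2, 21.9% of the control level. Col1a1 and Col1a2, the chains of type I collagen, kept 14.8% and 17.5% of their control means, Lox 36.2% and Col3a1 11.3%. The stromal defining marker Thy1 was at 0.146 RPKM or less in every library and Lum at 0.054 or less. Cd3e, Cd79a and Ly6g, markers of lymphocytes and granulocytes, were at 0.046 RPKM or less in every library. Pf4, listed as a platelet marker, was called higher, with a mean of 235 RPKM in control and 603 in siTet1/Tet2 (1.38, adjusted p = 0.000228). Which cells its transcripts came from was not measured. The summed RPKM of 5 endothelial markers ran from 2.42 to 2.88 in control and from 1.35 to 1.46 in siTet1/Tet2, and Kdr, the highest of them, went from a mean of 1.58 to 0.604 RPKM (adjusted p = 0.00031). Of the others, Pecam1 was called higher, from a mean of 0.175 to 0.377 RPKM (adjusted p = 0.0272), and Emcn lower, from 0.380 to 0.152 RPKM (adjusted p = 0.0194). In such bulk RNA, fewer cells of a type and less RNA per cell cannot be told apart, and the part of these markers in the results above was not tested.

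**Figure D4:**
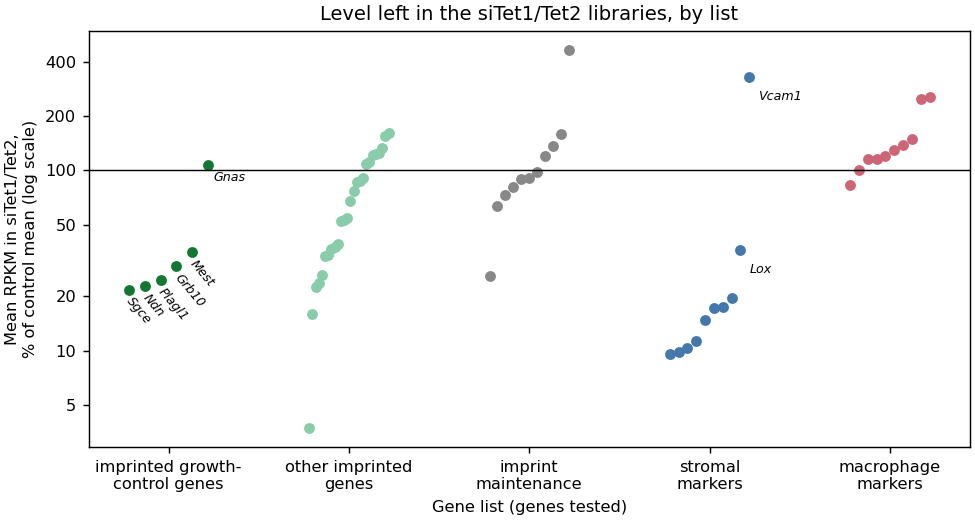
Mean RPKM in siTet1/Tet2 as a percentage of the control mean, on a log axis, with 1 point for each tested gene of 5 lists; the line marks 100%. Sgce, Ndn, Plagl1 and Grb10 lay at 21.8% to 29.5% and Gnas at 107%. Of the 10 stromal markers tested, 9 lay at 9.52% to 36.2% and Vcam1, which rose, at 330%.

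The levels were also taken relative to stromal marker RNAs of the same library, as RPKM over the geometric mean of the 10 stromal markers tested. On this ratio Sgce was 1.04-fold, Ndn 1.14-fold and Plagl1 1.22-fold the control mean in siTet1/Tet2, each with libraries of the 2 groups overlapping. The Grb10 ratio was 0.254, 0.251 and 0.228 in control and 0.358, 0.363 and 0.351 in siTet1/Tet2. The groups did not overlap, with a mean 1.46-fold higher in siTet1/Tet2. Mest was 1.97-fold the control mean with overlapping groups. Gnas, whose RPKM itself was 107% of control, was 5.48-fold higher on this ratio, without overlap. Dio3 had ratios of 0.0433, 0.0371 and 0.0331 in control and 0.0145, 0.00563 and 0.0035 in siTet1/Tet2, so that it alone among the 12 genes taken in this way lay below the control libraries, at 0.209-fold. Without Vcam1, the stromal marker that rose, the ratios were 2.00-fold for Grb10, 1.56-fold for Ndn, 1.67-fold for Plagl1, 2.72-fold for Mest, 1.42-fold for Sgce and 0.290-fold for Dio3. Leaving Vcam1 out was chosen after the values were seen, and with it the groups of Ndn, Plagl1, Mest, Igf2 and Tfpi2 no longer overlapped. The size of these ratios follows the markers chosen, and they have no test. Which cells the imprinted transcripts came from was not measured.

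**Figure D5:**
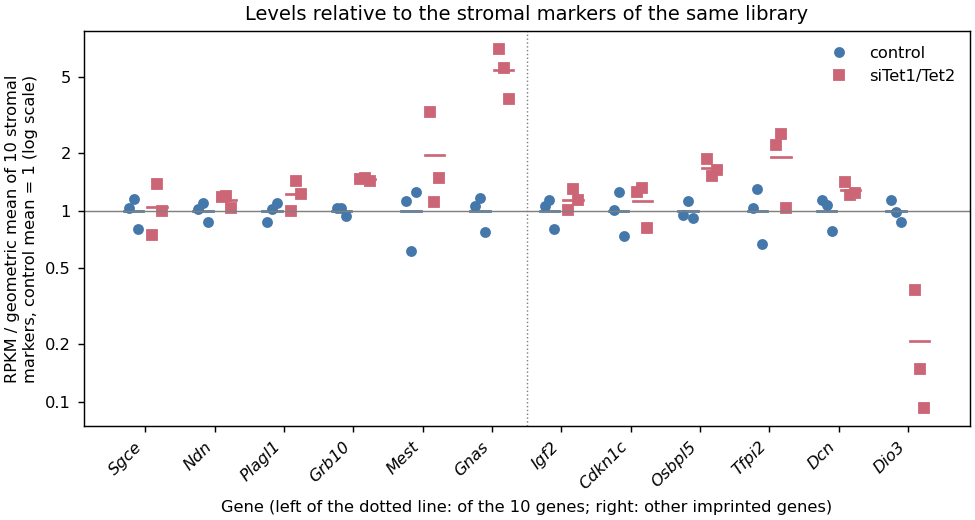
RPKM over the geometric mean of 10 stromal markers in the same library, scaled to a control mean of 1, on a log axis, for 6 of the 10 genes (left of the dotted line) and 6 other imprinted genes (right), with control libraries as circles, siTet1/Tet2 libraries as squares and means as lines. Sgce and Ndn overlapped between groups near 1, Grb10 lay at 1.46-fold and Gnas at 5.48-fold, and Dio3 lay at 0.209-fold.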

How the data were processed

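RNA-seq of 6 libraries of mouse BMMSCs, 3 control and 3 siTet1/Tet2, was used. The authors sequenced paired-end reads on a HiSeq 2500, trimmed adaptors, mapped to GRCm38 and estimated abundance with DNASTAR Lasergene. The deposited values are linear RPKM, named FPKM in the methods. The annotation, strand use and treatment of multiply matching reads are not given in the sources used here. The p-value column that the authors deposited was not used.

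The highest row of a repeated symbol was kept. Values of log2(RPKM + 1) were compared with limma 3.58.1 in R 4.3.3 (lmFit, eBayes with trend), two-sided, for the 13266 genes averaging 0.1 RPKM or more, with Benjamini-Hochberg adjustment over all of them. The scripts were tested on simulated data. The members and lists were chosen with earlier results of these data known. Genes named were the 10 members, the imprinted genes tested in their neighbourhoods, up to 10 others called, by size, and up to 4 of the highest genes of the maintenance list and of each marker list, beside genes named for a count. Some markers of the lists are not reported here.

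The deposited table holds no read totals. A depth was estimated (Python 3.11.15 with numpy 2.4.6 and pandas 2.3.3) by asking which total brings low RPKM of single-transcript genes nearest to whole reads. This gave 32400000 to 38500000 reads, with 55.2% to 59.3% of values within 0.1 of a whole number. The total was chosen for its match, so the reads quoted, based on the longest transcript of a gene, are estimates, and no count test was run. Positions were taken from GENCODE M21 (GRCm38) and promoter windows from RefSeq. Deviations of same-numbered libraries from their group means had correlations of 0.149, 0.117 and 0.462, each above 0.1, and an alternative fit used the number as a block. Control 1 with siTet1/Tet2 2 reached 0.332 and control 2 with siTet1/Tet2 1 reached 0.205, so only number 3 correlated best with itself. No source says what a number stands for.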

Additional observations from a re-analysis of the deposited data

How the results depend on the processing

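Grb10, Ndn, Sgce and Plagl1 kept their direction and call under every alternative that did not centre the libraries on the stromal markers, with differences of −1.79 to −1.42, −2.14 to −1.57, −2.30 to −1.60 and −2.02 to −0.51, except that Plagl1 was not tested at a mean of at least 1 RPKM, which left 3 members called lower. Mest passed with a pseudocount of 0.1 (−0.96), with libraries scaled to the same sum (−0.50) and with the replicate block (−0.26, adjusted p = 0.0271), and ran from −0.35 to −0.17 as each library was left out. The block also brought in Peg10, and changed no other call of a named gene. A pseudocount of 0.01 made 5 of the 6 members tested altered and lower, as it did 12.0% of all genes tested. The 4 other imprinted genes called higher became 1 without the filter on low values and 2 to 4 as each library was left out (2 without siTet1/Tet2 2). The 2 maintenance genes called higher became 1 without the filter, at a mean of at least 1 RPKM, with the same sum per library, and in 5 of the 6 fits that left a library out, which gave 1 to 2. Snrpn went to 0.00 with a pseudocount of 0.01, Ctcf to 0.06 and 0.11 with median ratio scaling and quantile normalization and −0.07 to 0.01 as libraries were left out, and Ppp1r9a to −0.03 to 0.27.

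Centring each library on the median of the stromal markers moved the median of all genes by 2.41 on the log2 scale, and quantile normalization moved it by 0.14. The centring took all 12 stromal markers, with Thy1 and Lum, while the ratios above took the geometric mean of the 10 tested. Every value below is relative to the median of the 12 markers. On the log2(RPKM + 1) scale, the largest fall open to a gene at a low control level is smaller than the shift of 2.41. Mest, Plagl1, Igf2, Peg10, Snrpn and Dio3 are such genes. Their positive sign with a pseudocount of 1 was therefore fixed in advance. With a pseudocount of 1, and then with 0.01, which was added after the data were seen, the differences became 0.82 and 0.81 for Grb10, 2.15 and 1.22 for Mest, 1.71 and 0.58 for Plagl1, 0.65 and 0.46 for Ndn, 0.54 and 0.30 for Sgce, and 2.50 and 2.69 for Gnas. Members called lower became 0 and 0, called higher 6 and 3, altered and lower 0 and 0, altered and higher 3 and 2. Of all genes tested, 98.5% and 94.0% were called higher under these settings, so the counts restate the shift. Other imprinted genes called lower became 0 and 1, and called higher 25 and 22. Maintenance genes called lower became 0 and 0, and called higher 11 and 10. The named genes that turned positive were Igf2 (1.67 and 0.51), Peg12 (1.98 and 1.67), Snrpn (2.08 and 2.60), Ube3a (1.87 and 2.04), Peg10 (2.13 and 1.70), Tfpi2 (1.35 and 1.16), Asb4 (1.86 and 1.73), Cdkn1c (0.39 and 0.44), Osbpl5 (0.95 and 1.00), Dcn (1.18 and 0.66), Mcts2 (1.70 and 1.15), Nnat (2.00 and 1.24), Slc22a18 (2.08 and 2.21), Cd81 (2.20 and 2.38), Trim28 (2.10 and 2.28), Dnmt1 (2.28 and 2.47) and Ctcf (2.39 and 2.58). Dio3 turned with a pseudocount of 1 (0.76) and not with 0.01.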
